A study of Homo sapiens with 24 samples.

Results

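NEURL1B and 9 genes of the Notch pathway, NOTCH1, NOTCH2, NOTCH3, JAG1, JAG2, DLL1, MIB1, HES1 and HEY1, were followed through 24 RNA-seq libraries of A549 cells, an established human lung adenocarcinoma line. The 10 genes were taken by symbol from the 58721 gene identifiers of the count tables, and all 10 were found. Cells were transfected with siRNA at 25 nM against MYBL2 (siMYBL2, n = 4), against FOXM1 (siFOXM1, n = 4), or against both (siBoth, n = 3). A scrambled siRNA served as control, in siControl (n = 4), which both single knockdowns share, and in siControl_Both (n = 3). In a separate experiment, cells were treated for 24 h with 20 µM of FDI-6, a small molecule that inhibits DNA binding by FOXM1 (FDI6, n = 3). They were compared with control_FDI6 (n = 3), labelled as wild-type cells. The study names this control DMSO in a supplementary title and untreated in a figure legend. MYBL2 and FOXM1 are transcription factors of the cell cycle, and the comparisons ask how each gene responds when 1 or both are depleted or when FOXM1 is targeted by the compound. The study chose NEURL1B among its targets as lower in both single knockdowns and the double knockdown of these same libraries. It also required a promoter bound by MYBL2 or FOXM1 in ChIP-seq. The study then ran new RT-qPCR in A549 and another lung adenocarcinoma line. It reports that knockdown of both factors reduced most of the targets there. The NEURL1B values given here, with their standard errors, intervals and pair counts, are a description. They carry no p-value and test nothing, as the choice fixed their direction in the knockdowns. The study also reports strong suppression of NEURL1B by FDI-6, so its fall in those libraries was known before. The other 9 genes were tested in the fit across all genes.

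Notch signaling passes between neighboring cells. A ligand of the Jagged or Delta-like family on 1 cell binds a Notch receptor on another, the receptor is cut by ADAM proteases and gamma-secretase, and the freed intracellular part enters the nucleus and works with RBPJ to switch on targets such as HES1 and HEY1. The ligand has to be ubiquitinated and pulled into the sending cell for the receptor to be cut. That step is carried out by E3 ubiquitin ligases of the Mind bomb family (MIB1) and the Neuralized family, to which NEURL1B belongs. In lung epithelium, Notch activity is best known for steering the choice between secretory and ciliated cell fates.

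Each library held 16487394 to 30140550 read counts on genes. The targeted mRNAs behaved as the labels say: MYBL2 was at 4.77 to 9.002 CPM (counts of the gene per 1000000 counts on genes) in siMYBL2 and 6.235 to 10.19 CPM in siBoth, against 131.5 to 182.4 CPM in the 2 scrambled-siRNA groups. FOXM1 was at 10.35 to 13.19 CPM in siFOXM1 and 10.23 to 15.48 CPM in siBoth, against 106.6 to 137.8 CPM in those controls. FOXM1 was also lower in siMYBL2, at 60.27 to 94.3 CPM (log2 fold change −0.73, edgeR adjusted p = 0.00754), and with FDI-6 it was at 91.22 to 111.7 CPM against 124.6 to 128.2 CPM (−0.37, edgeR adjusted p = 0.004). All 5 epithelial markers were expressed, while a mean of 1 CPM was reached by 1 of 5 alveolar type II markers, 2 of 4 fibroblast markers (summed level 5.883 to 60.697 CPM over the libraries), 1 of 4 endothelial markers (0.182 to 5.036 CPM) and 0 of 4 leukocyte markers (0 to 0.483 CPM). The part of these genes in the results was not tested. Of the siBoth reads, 9.09 to 10.93% did not align, against 7.68 to 7.92% in siControl_Both, and the part of this in the siBoth results was not tested. In such bulk libraries, fewer expressing cells and less RNA per cell cannot be told apart.

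To compare levels between genes, CPM was divided by exon length in kilobases. In siControl, the Jagged ligand JAG1 stood highest with 20.17 ± 0.8351 CPM per kb (SD, n = 4). It was followed by HES1 at 11.08 ± 3.046, NOTCH2 at 9.617 ± 1.556 and MIB1 at 7.288 ± 0.8364 CPM per kb, and the mean ± SD ranges of these neighbors overlapped. JAG2 at 5.411 ± 0.6489, NOTCH3 at 4.332 ± 2.065 and NOTCH1 at 3.034 ± 0.3034 CPM per kb also overlapped with their neighbors. NEURL1B followed at 1.55 ± 0.3749 CPM per kb, below NOTCH1 and above HEY1 at 0.2943 ± 0.1121 and DLL1 at 0.1164 ± 0.03853 CPM per kb. Per length, the siControl cells thus carried much less NEURL1B than MIB1 mRNA. In siControl_Both, MIB1 was at 4.707 ± 0.449 and NEURL1B at 1.18 ± 0.1094 CPM per kb. The gap was smaller in control_FDI6, with MIB1 at 4.461 ± 0.1569 and NEURL1B at 3.152 ± 0.152 CPM per kb. The Delta-like ligand DLL1 was near the lower end of what these libraries count, with 7 to 15 reads per siControl library. Levels also differed between the control groups: NEURL1B was at 3.152 ± 0.152 CPM per kb in control_FDI6 and 1.18 ± 0.1094 in siControl_Both, and NOTCH2 at 4.43 ± 0.3697 and 12.68 ± 0.9453 CPM per kb. Experiment and type of control cannot be told apart here, so every treatment is set against its own control only.

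NEURL1B (ENSG00000214357.8; hg38, chr5:172641263-172691540, plus strand, 5 exons in its canonical transcript) was lower in all 4 treatments, with no overlap between treated and control libraries. It was lowest wherever FOXM1 was depleted. In siControl, its level was 9.102, 7.357, 13.09 and 10.31 CPM in replicates 1 to 4, and in siFOXM1 1.172, 1.368, 1.358 and 1.559 CPM. Every siFOXM1 library was therefore far below the lowest control. The mean was 13.7% of the control mean, and the fitted log2 fold change was −2.90 (standard error 0.198, 95% interval −3.34 to −2.45), which is 7.45-fold lower. In siMYBL2, NEURL1B was at 3.704, 4.396, 6.079 and 6.545 CPM, or 52.0% of the control mean, and the log2 fold change was −1.01 (standard error 0.225, interval −1.52 to −0.50). The 4 siMYBL2 libraries lay between the siFOXM1 and siControl libraries without touching either. FOXM1 mRNA itself was lower in these siMYBL2 libraries, as given above, and its part in the NEURL1B level was not tested.

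In the double knockdown, NEURL1B was also low against its own control. NEURL1B was at 1.103, 1.041 and 1.919 CPM in siBoth against 8.3, 7.556 and 6.895 CPM in siControl_Both, that is 17.9% of the control mean, with a log2 fold change of −2.59 (standard error 0.251, interval −3.16 to −2.02). With FDI-6 it was at 10.43, 11.9 and 10.88 CPM against 19.72, 21.39 and 19.68 CPM, or 54.6% of the control mean, with a log2 fold change of −0.91 (standard error 0.104, interval −1.14 to −0.68). The control_FDI6 libraries stood above all scrambled-siRNA libraries, and the FDI6 libraries among them. NEURL1B was lower in 4 of 4, 4 of 4, 3 of 3 and 3 of 3 same-numbered pairs in siMYBL2, siFOXM1, siBoth and FDI6. Set directly against siMYBL2, siFOXM1 had a NEURL1B log2 difference of −1.88. The values behind these ratios rest on 30 to 47 reads per siFOXM1 library, 24 to 45 per siBoth library and 162 to 450 per control library. Of the exon bases of NEURL1B, 6.0% also lie in a gene on the other strand, and how reads were assigned by strand is not given in the sources used here.

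**Figure D1:**
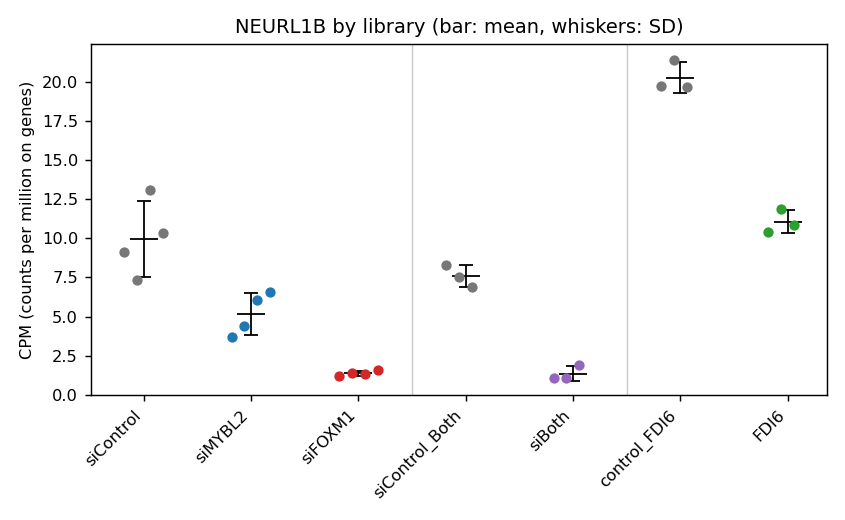
NEURL1B in CPM (vertical axis) for each library (points) in the 7 groups, with mean and SD; vertical lines part the 3 experiments. The siFOXM1 libraries sit between 1.172 and 1.559 CPM and the siBoth libraries between 1.041 and 1.919 CPM, below all siMYBL2 libraries, while the FDI6 libraries sit between 10.43 and 11.9 CPM, below their own controls.

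Stretches of sequence from the promoter and the 3′ UTR of NEURL1B are shown next, beside those members that hold the same letters. Promoters, as 300-base windows from RefSeq (GRCh38.p14, 250 bases before to 50 after the start of the gene), were listed for 8 of the 10 genes, all but DLL1 and HEY1. They were searched on both strands for 5 motifs. One was TTTGAA, the core of the cell cycle gene homology region (CHR), through which MuvB complexes with MYBL2 and FOXM1 are known to bind. The letters CCAAT mark the box of that name, and the core bound by RBPJ was searched as TGGGAA. A forkhead site was searched as GTAAACA. The MYB core was searched as AACGG. The promoters of NEURL1B and NOTCH1 each held 1 CHR core, on the strand opposite to the gene, which begins 135 and 228 bases before the start. These are chr5:172641116-172641145 (plus) and chr9:136546259-136546288 (minus), read in the direction of the gene with the CHR core in capitals:
NEURL1B promoter: ctggtgcaaactTTCAAAagatgcggcggc
NOTCH1 promoter: cctctgaaaactTTCAAAcgagaagtagtc

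The CHR core is present in 15.2% of 35116 promoters of this length, so its occurrence in 2 of 8 is a description. No forkhead letters were found in any of the 8 windows, against 3.4% of all promoters, and the MYB core was found in that of HES1 only, against 19.7%. Letters alone do not tell binding. The study's ChIP-seq placed MYBL2, FOXM1 or both at the promoters of its targets, NEURL1B among them. The CCAAT letters stood 3 times in the window of HES1, 1 time in that of MIB1 and not in the other 6 windows, against 34.6% of all promoters with at least 1. The HES1 promoter also held 2 RBPJ cores, which start 84 and 70 bases before its start (24.0% of all promoters hold at least 1). Whether RBPJ binds these cores was not tested. They lie at chr3:194136052-194136081 and chr3:194136066-194136095 (plus), with the core in capitals:
HES1 first RBPJ core: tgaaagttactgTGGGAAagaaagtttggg
HES1 second RBPJ core: ggaaagaaagttTGGGAAgtttcacacgag

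The 3′ UTR of NEURL1B holds the letters GTGTTTA, a word already known from these data to be frequent among genes lower in siFOXM1, so it is no independent observation. It was searched for in the canonical 3′ UTRs of all 10 genes. NEURL1B, NOTCH1 and JAG1 held 1 copy each, MIB1 held 2, and the other 6 genes none. The NEURL1B copy starts at base 2261 of a 3′ UTR of 4615 bases, and the windows (hg38) are chr5:172689175-172689204 (plus), chr9:136495750-136495779 (minus), chr20:10638790-10638819 (minus), chr18:21866024-21866053 and chr18:21866289-21866318 (plus), in the order shown, with the word in capitals:
NEURL1B: gaggtaaggaaGTGTTTAtcttctaaaaac
NOTCH1: aagattcttctGTGTTTAtaaaatataaac
JAG1: tttatatgtatGTGTTTAgaattgaaggtt
MIB1 first copy: gattatatcagGTGTTTAcatagtgtctac
MIB1 second copy: attccatgtctGTGTTTAgctgagtaactg

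The same 7 letters thus stood in genes with very different values in siFOXM1: log2 fold changes were −2.90 for NEURL1B, −0.26 for NOTCH1, −0.20 for JAG1 and −0.06 for MIB1. Over all genes, 60 of 2308 with the word were called lower in siFOXM1 (2.6%) against 0.3% of those without it, and the medians were −0.07 and 0.01. In siBoth the corresponding shares were 8.83% and 3.14%, in siMYBL2 4.46% and 3.61%, and with FDI-6 the order turned, at 3.02% and 6.2%. Genes with and without the word were not matched for 3′ UTR length. The link of the word to either factor and its part in the NEURL1B level were not tested.

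Next, the receptors were examined. A gene was called when the edgeR adjusted p was under 0.05 and the fold change over 1.5, and by this rule 7.9% of all genes tested were called in siMYBL2, 0.667% in siFOXM1, 6.44% in siBoth and 13.8% with FDI-6. Over all genes, the 106 calls in siFOXM1 became 56 without siFOXM1 replicate 1, and the 1019 in siBoth became 587 without siBoth replicate 2. Of the 9 genes, 2 were called in siMYBL2, 0 in siFOXM1, 3 in siBoth (0 to 2 when any 1 library was left out) and 5 with FDI-6. NOTCH1 (chr9:136494433-136546048), the best studied receptor, fell when MYBL2 was depleted. It was at 23.1, 27.32, 26.67 and 24.78 CPM in siMYBL2 against 33.09, 37.53, 42.17 and 39.27 CPM in siControl (log2 fold change −0.65, standard error 0.0924, edgeR adjusted p = 0.00226). The groups did not overlap, and all 4 same-numbered pairs went down. In siBoth it was at 18.4, 27.27 and 19.74 CPM against 29.09, 33.55 and 30.77 CPM (−0.62, edgeR adjusted p = 0.033), again without overlap. That call is fragile: leaving out any library except siBoth replicate 2 took the adjusted p to between 0.0569 and 0.11, and upper-quartile scaling to 0.0502. In siFOXM1, NOTCH1 was at 30.83 to 34.53 CPM and was not called (−0.26, edgeR adjusted p = 0.215), and with FDI-6 it was at 42.15 to 53.89 against 51.28 to 59.41 CPM (−0.20, edgeR adjusted p = 0.13).

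NOTCH2 (chr1:119911553-120100779) was called with the compound and in none of the knockdowns. With FDI-6 it rose from 74.61, 80.13 and 67.78 CPM to 127.4, 121.1 and 120.6 CPM (log2 fold change 0.69, standard error 0.0764, edgeR adjusted p = 4.45e-05), a 1.62-fold higher level with a wide gap between the groups. The log2 fold changes in siMYBL2, siFOXM1 and siBoth were 0.13, −0.02 and −0.31, with adjusted p of 0.536, 0.981 and 0.175, and the groups overlapped in each. The difference between the FDI-6 effect and the siFOXM1 effect on NOTCH2 was itself called (0.71, standard error 0.177, edgeR adjusted p = 0.0117). NOTCH2 has near-identical partial copies in the genome, the NOTCH2NL genes, so its counts are uncertain to the extent that reads were shared between them.

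NOTCH3 (chr19:15159038-15200995) fell with FDI-6 and was spread widely in the single knockdowns. With FDI-6 it was at 8.491, 13.3 and 11.5 CPM against 22.24, 24.48 and 21.64 CPM (log2 fold change −1.07, standard error 0.144, edgeR adjusted p = 0.000175), or 48.7% of the control mean. In siMYBL2 it was at 22.68, 29.38, 13.25 and 32.06 CPM against 33.46, 39.25, 22.37 and 67.93 CPM in siControl. Replicate 3 was the lowest and replicate 4 the highest in siMYBL2, siFOXM1 and siControl alike, so the groups overlapped although all 4 siMYBL2 pairs went down. The log2 fold change of −0.81 was not called without pairing (edgeR adjusted p = 0.149) and was called once the replicate numbers entered as a block (−0.78, edgeR adjusted p = 1.19e-05). In siBoth it was at 19.54 to 23.72 against 24.3 to 31.74 CPM (−0.45, edgeR adjusted p = 0.0588). In siFOXM1 it stood at 22.11 to 72.59 CPM, with a log2 fold change of 0.09 (edgeR adjusted p = 0.97).

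The ligands changed in both directions. JAG1 (chr20:10637684-10673999), the most abundant ligand, was at 147.2, 134.7, 144.4 and 138.5 CPM in siMYBL2 against 198.9, 183.6, 185.8 and 181.9 CPM in siControl. The groups were well apart, and the log2 fold change of −0.48 passed the test (standard error 0.0575, edgeR adjusted p = 0.000946) but not the fold limit. In siBoth, JAG1 was at 189.2, 218.6 and 273.7 CPM against 295.9, 300.8 and 385.4 CPM and was called (−0.63, standard error 0.147, edgeR adjusted p = 0.0295). The siBoth call was lost without any library but siBoth replicate 3 or siControl_Both replicate 1, with adjusted p from 0.0617 to 0.1, and with upper-quartile scaling (0.0502). With FDI-6 the sign was the opposite, 168.8, 171.0 and 176.1 CPM against 128.3, 140.3 and 135.7 CPM, which passed the test at a log2 fold change of 0.32 (edgeR adjusted p = 0.00218) and not the fold limit. The FDI-6 and siFOXM1 effects on JAG1 differed by 0.51 (edgeR adjusted p = 0.002), again under the fold limit.

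JAG2 (chr14:105140982-105168824), the second Jagged ligand, fell with FDI-6, from 58.73, 60.12 and 56.11 CPM to 24.14, 33.16 and 33.59 CPM (log2 fold change −0.98, standard error 0.115, edgeR adjusted p = 6.62e-05). The FDI-6 libraries thus held 51.9% of the control mean, without overlap. JAG1 and JAG2 therefore had opposite signs under the compound, where JAG2 in the control cells had 9.118 ± 0.3188 and JAG1 14.49 ± 0.6497 CPM per kb (SD, n = 3). In the knockdowns, JAG2 was lower in every same-numbered pair, with log2 fold changes of −0.28 in siMYBL2, −0.43 in siFOXM1 and −0.45 in siBoth, but was called in none (edgeR adjusted p = 0.0609, 0.121 and 0.115). Its value of 0.121 was the lowest adjusted p of the 9 genes in siFOXM1, where 3 of them had an unadjusted p under 0.05. These were JAG2, NOTCH1 and JAG1, each lower in every same-numbered siFOXM1 pair, and this fit did not use the pairing. Each had an adjusted p under 0.05 in some alternative setting but stayed under the fold limit in all. Another gene on the same strand overlaps 7.3% of its exon bases.

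DLL1 (chr6:170282206-170306565) rose from a very low level in 3 of the 4 treatments. It was at 1.748, 1.151, 0.851 and 2.293 CPM in siMYBL2 against 0.615, 0.2614, 0.4848 and 0.4173 CPM in siControl (log2 fold change 1.69, standard error 0.373, edgeR adjusted p = 0.0147). In siBoth it was at 1.749, 2.211 and 1.62 CPM against 0.5562, 0.94 and 0.7661 CPM (1.19, edgeR adjusted p = 0.0303). With FDI-6 it was at 1.152, 0.6388 and 0.9019 CPM against 0.4206, 0.3802 and 0.2121 CPM (1.35, edgeR adjusted p = 0.0273). None of these groups overlapped. The siFOXM1 libraries, at 0.5079, 0.4022, 0.4655 and 0.564 CPM, mixed with their controls (0.10, edgeR adjusted p = 0.948), and the direct comparison of siFOXM1 with siMYBL2 was called (−1.59, standard error 0.331, edgeR adjusted p = 0.00855). These CPM rest on 4 to 8 reads per control_FDI6 library and 21 to 62 per siMYBL2 library. With FDI-6, DLL1 passed the count filter only through the treated libraries, so a rise was the only call open to it. It was not tested there when 10 counts were required in every library. The FDI-6 call was lost in 5 of the 6 fits that left out a library, all but that without FDI6 replicate 2, with adjusted p of 0.0582 to 0.11, and with DESeq2 (0.0648). The siBoth call was lost without any library but siBoth replicate 3 (0.0572 to 0.0968). A gene on the other strand covers 9.7% of its exon bases.

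MIB1 (chr18:21704957-21870953), the ligase that handles Notch ligands beside NEURL1B, went the other way from NEURL1B under the compound. It rose from 56.89, 59.55 and 60.99 CPM to 96.32, 89.31 and 93.74 CPM with FDI-6 (log2 fold change 0.62, standard error 0.0689, edgeR adjusted p = 4.75e-05). All 3 treated libraries stood well above the controls, although with upper-quartile scaling the fold change came just under the limit (0.58). In siMYBL2 it was at 108.1 to 135.7 CPM against 85.0 to 109.8 CPM, higher in 4 of 4 pairs but not called (0.25, edgeR adjusted p = 0.122). In siFOXM1 and siBoth the log2 fold changes were −0.06 and −0.17, with intervals of −0.26 to 0.14 and −0.37 to 0.03. The FDI-6 effect on MIB1 exceeded the siFOXM1 effect by 0.67 (standard error 0.12, edgeR adjusted p = 0.00149). In the FOXM1 knockdown, then, NEURL1B was 7.45-fold lower in libraries where the interval for MIB1 reached no lower than −0.26 on the log2 scale.

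The 2 target genes were called in none of the 4 treatments. HES1 (chr3:194136148-194138732), the classical Notch target, was at 18.6 to 37.38 CPM in siMYBL2, 18.82 to 34.94 CPM in siFOXM1 and 17.44 to 31.88 CPM in siControl, where replicate 4 was the highest of each group. Its log2 fold changes in siMYBL2, siFOXM1 and siBoth were 0.06, 0.09 and −0.05. The 95% intervals were −0.49 to 0.62, −0.44 to 0.61 and −0.60 to 0.50. Changes within these bounds were not resolved by this fit, which did not use the pairing. In same-numbered pairs, the log2 ratios of HES1 were −0.03 to 0.23, −0.03 to 0.24 and −0.55 to 0.49. With FDI-6, HES1 was at 13.59, 19.4 and 19.05 CPM against 23.45, 26.95 and 23.18 CPM, which passed the test without reaching the fold limit (−0.54, standard error 0.133, edgeR adjusted p = 0.00808). Without FDI6 replicate 2 or replicate 3 it was past both limits, at −0.63 and −0.60. HEY1 (chr8:79762371-79767857) was at 0.5459 to 2.781 CPM over the 24 libraries, and its log2 fold changes of 0.17, −0.41, −0.13 and 0.00 in siMYBL2, siFOXM1, siBoth and FDI6 had adjusted p of 0.752, 0.689, 0.784 and 0.997. In siFOXM1, then, 0 of the 9 genes were called where 0.667% of all genes were. The 95% intervals of several were wide in the fit without pairing: −0.80 to 0.97 for NOTCH3, −0.56 to 0.75 for DLL1 and −1.13 to 0.31 for HEY1. Their log2 ratios in same-numbered siFOXM1 pairs were −0.02 to 0.24, −0.28 to 0.62 and −0.59 to 0.3.

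**Figure D2:**
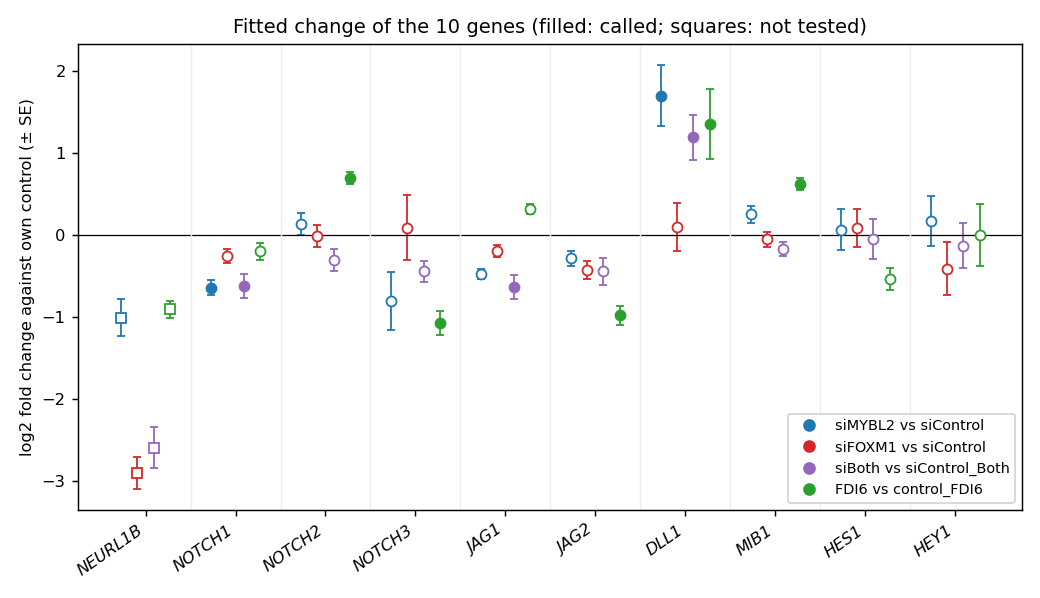
Fitted log2 fold change against the own control (vertical axis, bars ± standard error) of the 10 genes in the 4 treatments; filled circles mark calls, and NEURL1B is drawn as squares because it was not tested. NEURL1B is at −2.90 in siFOXM1 and −2.59 in siBoth, while no other gene is called in siFOXM1 and DLL1 is called higher in the other 3 treatments.

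**Figure D3:**
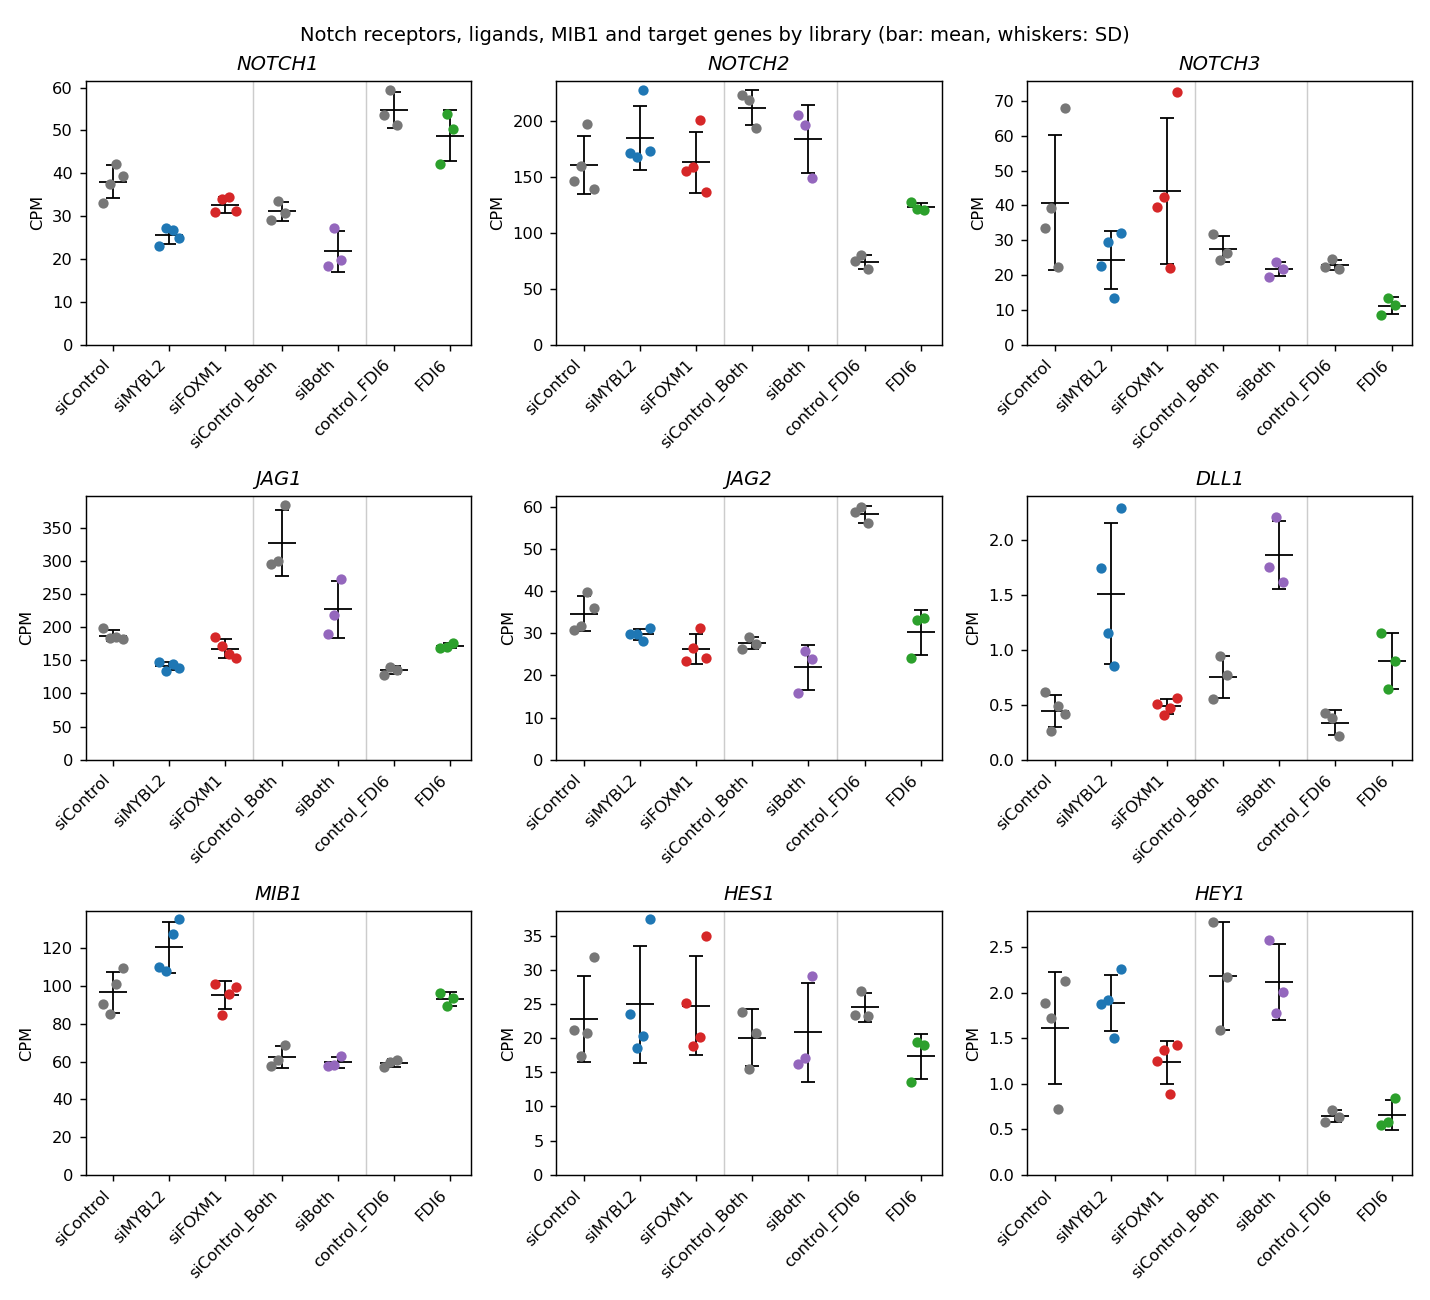
CPM (vertical axis) of the 9 genes other than NEURL1B in every library (points), with mean and SD for each of the 7 groups. NOTCH2 and MIB1 stand higher and NOTCH3 and JAG2 lower in FDI6 than in control_FDI6 without overlap, and NOTCH3 reaches from 22.11 to 72.59 CPM within siFOXM1.

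The wider pathway was then read from a list of 74 Notch genes grouped by textbook role, NEURL1B included. Of the other 73, 11 of 69 tested were called in siMYBL2 (5 lower, 6 higher; 15.9% against 7.9% of all genes, of which 3.52% were lower and 4.38% higher), 0 of 68 in siFOXM1 (12 had an unadjusted p under 0.05, and 0.591% of all genes were called lower and 0.0755% higher), 6 of 70 in siBoth (4 lower, 2 higher; 8.57% against 6.44%, of which 3.64% lower and 2.8% higher), and 19 of 69 with FDI-6 (10 lower, 9 higher; 27.5% against 13.8%, of which 5.77% lower and 8% higher). The median log2 fold change of the list was 0.00, −0.02, −0.02 and 0.00 in the 4 treatments, beside 0.01, 0.00, 0.02 and −0.01 for all genes tested. The pathway therefore held single genes that moved in both directions around a median near 0. With the replicate number as a block, 16 list genes were called in siMYBL2 (6 lower, 10 higher) where 12.4% of all genes were, 2 in siFOXM1 (NEURL1 and HES7, both lower) where 2.52% were, and 10 in siBoth where 11.7% were. DESeq2 called 0 list genes in siFOXM1. In siBoth, the count was 1 without siControl_Both replicate 3, where 3.95% of all genes were called. With FDI-6 it was 11 without control_FDI6 replicate 2, where 11.8% of all genes were.

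Of the relatives of NEURL1B, NEURL1 and NEURL3 were each called higher in 2 treatments when the block was left out. NEURL1, the closest member of the Neuralized family, was at 3.871, 3.035, 3.201 and 4.474 CPM in siMYBL2 against 1.558, 2.204, 1.731 and 2.378 CPM in siControl (log2 fold change 0.82, edgeR adjusted p = 0.0198). Without siMYBL2 replicate 1 or siControl replicate 1 or 3, that call was lost (edgeR adjusted p of 0.0565 to 0.0602). In siFOXM1 it was at 0.7814, 0.9251, 0.8922 and 1.659 CPM (−0.91, edgeR adjusted p = 0.167), which was called only with the replicate block (−0.93, edgeR adjusted p = 0.000981). The 2 single knockdowns thus lay on either side of the control, and their direct comparison was called (−1.72, standard error 0.256, edgeR adjusted p = 0.00175). With FDI-6, NEURL1 rose from 0.2103, 0.2852 and 0.1061 CPM (2 to 6 reads) to 0.6672, 0.7549 and 1.184 CPM (2.03, edgeR adjusted p = 0.00654). NEURL3 rose in siBoth, to 5.171, 4.596 and 3.539 CPM from 1.797, 1.916 and 1.787 CPM (1.17, edgeR adjusted p = 0.0122), and with FDI-6, where the controls held 1 to 9 reads (1.94, edgeR adjusted p = 0.0222). The siBoth call was lost without siControl_Both replicate 3 (0.0504), and the FDI-6 call without FDI6 replicate 3 or control_FDI6 replicate 2 or 3 (0.0781 to 0.0977). With FDI-6, NEURL1 and NEURL3 passed the count filter only through the treated libraries, so a rise was the only call open to them. Neither was tested there when 10 counts were required in every library. In siMYBL2, NEURL3 was called with the block (1.05, edgeR adjusted p = 0.00148) and without siMYBL2 replicate 4 (1.34, edgeR adjusted p = 0.0466), and not otherwise. In siBoth, NEURL1 was called with the block (1.03, edgeR adjusted p = 0.0182), with no filter (0.99, edgeR adjusted p = 0.0273) and without siControl_Both replicate 1 (1.59, edgeR adjusted p = 0.034), and not otherwise.

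Among the proteins that act on the receptor, NUMB, an inhibitor that sends Notch to endocytic turnover, fell in both treatments that depleted MYBL2. It was at 29.93, 36.36, 27.72 and 37.98 CPM in siMYBL2 against 69.66, 76.45, 65.37 and 85.54 CPM in siControl (log2 fold change −1.24, standard error 0.122, edgeR adjusted p = 0.000417). In siBoth it was at 64.82, 56.97 and 52.49 CPM against 109.4, 107.0 and 101.3 CPM (−0.97, edgeR adjusted p = 0.00138). Its levels in siFOXM1, 76.11 to 96.81 CPM, overlapped the control (0.16, edgeR adjusted p = 0.595), and siFOXM1 and siMYBL2 differed directly (1.40, edgeR adjusted p = 0.00011). NUMBL, its relative, fell in siMYBL2 (−0.79, edgeR adjusted p = 0.00262), and AAK1, a kinase of clathrin adaptors, fell in siBoth (−0.62, edgeR adjusted p = 0.00909). AAK1 came under the fold limit with upper-quartile scaling (−0.55) and without siBoth replicate 2 (−0.57) or siControl_Both replicate 3 (−0.54). With FDI-6 a different pair was called: ITCH, a ubiquitin ligase for Notch, rose (0.61, edgeR adjusted p = 0.00038) and the Deltex gene DTX2 fell (−0.60, edgeR adjusted p = 0.00129). Both lie near the fold limit: ITCH was under it with upper-quartile scaling (0.57) and without FDI6 replicate 1 (0.50) or control_FDI6 replicate 1 (0.58), and DTX2 without FDI6 replicate 1 (−0.47) or control_FDI6 replicate 2 (−0.57). NUMB itself was 0.24 higher with FDI-6, under the fold limit.

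The Fringe enzymes add sugars to Notch and so tune its choice of ligand. Of the 3, LFNG and MFNG were called in siMYBL2 and with FDI-6, with opposite signs, and RFNG in neither (−0.03 and −0.23, edgeR adjusted p = 0.847 and 0.331). LFNG rose to 29.3, 25.82, 24.72 and 36.61 CPM in siMYBL2 from 18.25, 16.77, 17.28 and 17.94 CPM in siControl (0.66, edgeR adjusted p = 0.0069) and fell with FDI-6 to 5.883, 6.097 and 7.271 CPM from 10.88, 10.55 and 11.93 CPM (−0.83, edgeR adjusted p = 0.00061). Without siMYBL2 replicate 4, LFNG was under the fold limit in siMYBL2 (0.54). MFNG had 0.88 in siMYBL2 (edgeR adjusted p = 0.0272) and −0.92 with FDI-6 (edgeR adjusted p = 0.0486), and both calls are fragile. The siMYBL2 call was lost without siMYBL2 replicate 3 or 4 or siControl replicate 1, 2 or 3 (edgeR adjusted p of 0.0529 to 0.0772). The FDI-6 call was lost with DESeq2 (0.0958), with no filter (0.0698), with the block (0.0706) and without any library but control_FDI6 replicate 1 (0.0827 to 0.187). The difference between siMYBL2 and FDI6 was not tested. FURIN, the convertase that first cleaves the receptor, rose in siMYBL2 (0.78, edgeR adjusted p = 0.00371), and PSENEN, a gamma-secretase subunit, fell with FDI-6 (−0.79, edgeR adjusted p = 0.0322). The PSENEN call was lost with the block (0.0523), without FDI6 replicate 2 (0.0919), without control_FDI6 replicate 2 (0.0583) and without control_FDI6 replicate 1, where the log2 fold change was −0.48 (edgeR adjusted p = 0.169). None of the gamma-secretase genes was called in the knockdowns.

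Of the remaining ligand genes, DLL4 rose with FDI-6 (1.10, edgeR adjusted p = 0.0135), a call lost without FDI6 replicate 2 (0.0661) or control_FDI6 replicate 3 (0.0571). DLL4 had 1.41 in siMYBL2 (edgeR adjusted p = 0.104), called with the block (1.35, edgeR adjusted p = 0.000463) and with DESeq2 (DESeq2 adjusted p = 0.0444). In siBoth DLL4 had 1.19 (edgeR adjusted p = 0.188), called with the block (1.17, edgeR adjusted p = 0.000288) and with no filter (edgeR adjusted p = 0.00157). EPN1, an epsin of ligand endocytosis, fell with FDI-6 (−0.59, edgeR adjusted p = 0.00429), and was under the fold limit without FDI6 replicate 1 (−0.41) or control_FDI6 replicate 1 (−0.58) or 2 (−0.57). In the nucleus, with FDI-6 the coactivator MAML2 rose (0.90, edgeR adjusted p = 0.00172), the corepressor SPEN rose (0.62, edgeR adjusted p = 2.3e-05) and the corepressor TLE2 fell (−0.72, edgeR adjusted p = 0.0116). SPEN was under the fold limit with upper-quartile scaling (0.57), and the TLE2 call was lost without control_FDI6 replicate 2 (edgeR adjusted p = 0.058). With the block, TLE2 was also called higher in siMYBL2 (0.62, edgeR adjusted p = 7.5e-05). Of 11 listed targets, 1 was called lower and 1 higher in siMYBL2, namely HEYL (−0.70, edgeR adjusted p = 0.00479) and DTX1, which rose to 2.747, 2.407, 2.675 and 2.588 CPM from 0.656, 1.083, 0.5194 and 1.168 CPM (1.54, edgeR adjusted p = 0.00405). With FDI-6, 2 targets were called lower, HES4 (−0.70, edgeR adjusted p = 0.0197) and HEY2 (−1.37, edgeR adjusted p = 0.0421), the latter at 3 to 11 against 12 to 27 reads and named after its values were seen. Both calls were lost with DESeq2 (DESeq2 adjusted p = 0.081 and 0.0604). The HES4 call was also lost without FDI6 replicate 1, where the log2 fold change was −0.43, and without control_FDI6 replicate 1 (0.0551) or 2 (0.0765). The HEY2 call was lost with the block (0.0689) and without FDI6 or control_FDI6 replicate 2 or 3 (0.11 to 0.172). HEY2 passed the count filter only through the control libraries, so a fall was the only call open to it.

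**Figure D4:**
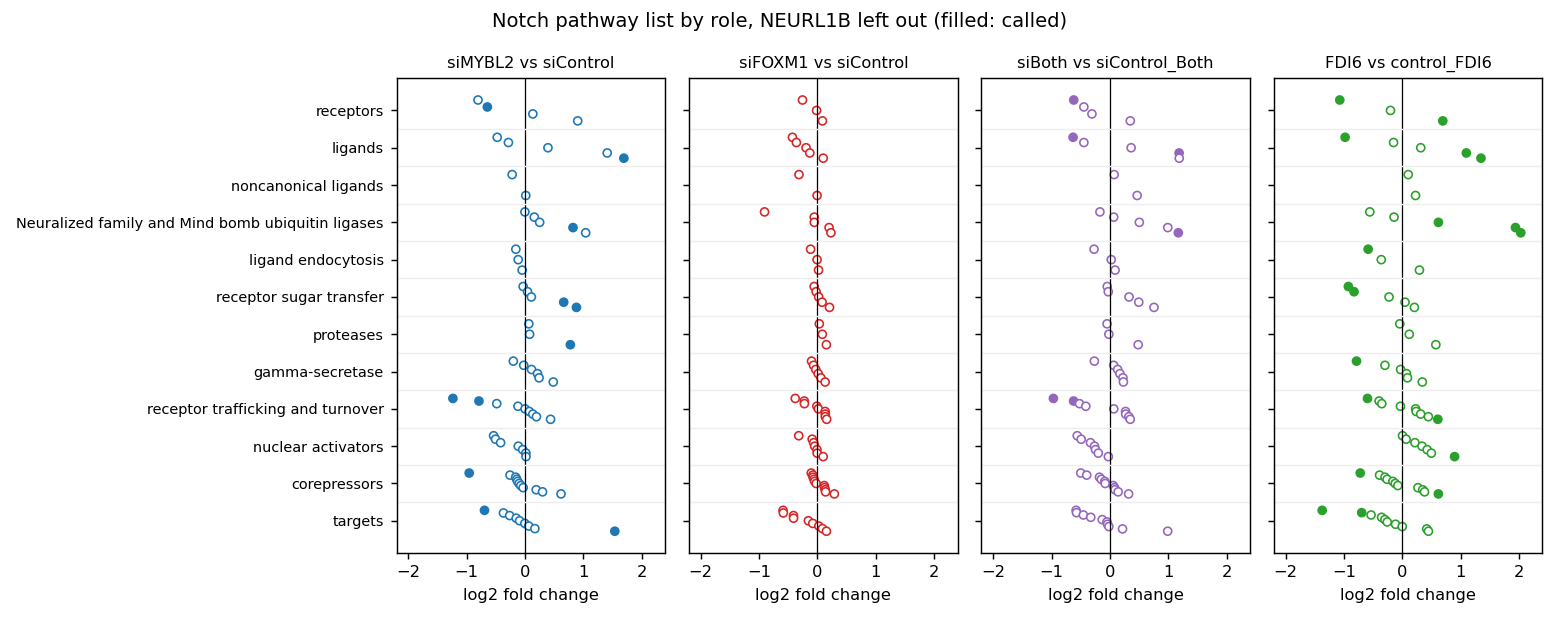
Fitted log2 fold change (horizontal axis) of the tested genes of the Notch list other than NEURL1B, in rows by role, for the 4 treatments; filled points mark calls. No point is filled for siFOXM1, and filled points lie on both sides of 0 in the other 3 panels.

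Direct tests between treatments gave the following. Between siFOXM1 and siMYBL2, 9 of 69 list genes differed (13% against 10.2% of all genes), and 15 did so with the replicate block, where 14.3% of all genes did. Of the 9 partners of NEURL1B, DLL1 differed, and NOTCH3 joined it with the block (0.86, edgeR adjusted p = 3.34e-06). Between the FDI-6 and siFOXM1 effects, 10 of 70 differed (14.3% against 11.5%), and 19 with the block, where 16.8% of all genes differed. NOTCH2 and MIB1 were among the 10, and NOTCH3 (−1.16, edgeR adjusted p = 2.73e-06) and HES1 (−0.62, edgeR adjusted p = 0.000889) were added with the block. The siBoth and siMYBL2 effects differed for 0 of 70 list genes in edgeR (0.159% of all genes; 7 list genes had an unadjusted p under 0.05), and DESeq2 also gave 0.

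Finally, genes whose pattern over the 24 libraries was most like that of NEURL1B were ranked by Pearson's r of log2(CPM + 1) after subtraction of the mean of the own control group, among 11350 expressed genes. The first 5 were TNFAIP8L1 (r = 0.936), FOXM1 (0.935), KHSRP (0.934), TROAP (0.928) and GPSM2 (0.924). These libraries share treatments and controls, so r is a description. NEURL1B itself was lowest where FOXM1 was depleted, so the ranking favors genes that are low there, and FOXM1 is the siRNA target. The siFOXM1 log2 fold changes of the 5, −1.09, −3.38, −0.98, −1.33 and −1.08, are therefore no independent observation. The Notch genes had lower r than these 5. Among the 11350 genes, NOTCH1 was at r = 0.514 (rank 298), JAG2 at 0.466 (rank 424) and JAG1 at 0.431 (rank 523). MIB1 and NOTCH2 had 0.113 and 0.111, and NOTCH3 and HES1 0.02 and 0.005, while DLL1 and HEY1 were under the count minimum of this ranking.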

How the data were processed

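RNA from A549 cells was captured by polyA and sequenced as 150 bp paired-end reads, per the labels. The authors trimmed reads with Trim Galore, aligned them to hg38 with STAR and counted reads per GENCODE gene with HTSeq; the deposited values are raw counts, 1 table per library, and tool versions are not given in the sources used here. Rows that name no gene were left out of all totals. CPM is a count divided by the library's count on genes. Groups came from the sample titles, and the study's methods call the replicates biological without saying whether they were separate cultures, so p-values measure the spread between these samples. The 10 genes and the lists were chosen with earlier results of these data known.

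Each treatment was compared with its own control by edgeR 4.0.16 (R 4.3.3) quasi-likelihood tests with TMM scaling, filterByExpr and Benjamini-Hochberg adjustment over all genes tested; differences between treatments were contrasts in 1 fit. A call needed an adjusted p under 0.05 and a fold over 1.5. Tests were checked on simulated data. There, changes of 2-fold were recovered at 81.2% under the compound but at only 61.6% (siBoth), 64.3% (siMYBL2) and 65.3% (siFOXM1) after knockdown. At 4-fold the lowest share was 94.6%, that of siBoth. Genes not called after knockdown can therefore include missed changes near 2-fold, and call counts there and under the compound rest on unequal sensitivity. Alternatives were DESeq2 1.42.0, 2 other scalings (upper-quartile or RLE), testing without a filter or with a minimum of 10 counts in every library, the replicate number as a block, and leaving out each library. Replicate numbers come from the titles. Libraries with the same number departed together from the means of their groups. Correlations in every pair were 0.58 or more in siMYBL2, 0.557 in siFOXM1, 0.562 in siBoth and 0.547 between the single knockdowns. These libraries thus looked paired, but the main tests took no account of it. Pairing entered only in the alternative with the replicate number as a block. In FDI6 the lowest correlation was −0.305. Named genes were the 10 genes, both siRNA targets, other pathway genes called against an own control (20 of 21, lowest adjusted p first, 1 of which is not reported here) and the 5 most like NEURL1B, with a mean of at least 100 counts. Of the identifiers, 58207 matched a current symbol. Gene coordinates are from a later GENCODE release on hg38. Intervals are at 95%, from the fit's standard error and degrees of freedom.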

Additional observations from a re-analysis of the deposited data

Results flagged for a closer look

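Of 90 groups of 4 libraries checked among the named genes, 5 had 1 library far from the other 3, near the 1 in 20 that chance gives. These were NOTCH2 in siMYBL2 replicate 3 (227.9 CPM), NEURL1 in siFOXM1 replicate 4 (1.659 CPM), NEURL3 and DLL4 in siMYBL2 replicate 4 (0.6286 and 5.325 CPM) and MFNG in siControl replicate 4 (2.879 CPM). Groups of 3 were not checked.

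The tested difference between siFOXM1 and siMYBL2 was called for DLL1 (−1.59), NEURL1 (−1.72), LFNG (−0.68), FURIN (−0.69), NUMB (1.40), HEYL (0.85) and DTX1 (−2.12), on the log2 scale with positive values higher in siFOXM1. The siControl libraries did not enter this test. For the FDI-6 effect minus the siFOXM1 effect, calls were made for NOTCH2 (0.71), MIB1 (0.67), NEURL1 (2.94), EPN1 (−0.61), LFNG (−0.81), ITCH (0.99), DTX2 (−0.74), MAML2 (1.21) and SPEN (0.67). These 2 experiments also differ in their controls, and that part was not tested.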

How the results depend on the processing

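NEURL1B stayed lower in all 4 treatments under every alternative run. Its log2 fold change ranged from −1.14 to −0.86 in siMYBL2, −3.02 to −2.73 in siFOXM1, −2.93 to −2.44 in siBoth and −0.97 to −0.87 with FDI-6. Of the 145 other gene values, none that was called changed sign; over 1951 recomputed values, 73 lost and 36 gained a call.

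Counts of calls moved as follows. Among the 9 partners, siMYBL2 gave 1 instead of 2 when 10 counts were required in every library, which removes DLL1, and siBoth gave 1 instead of 3 with upper-quartile scaling and 0 to 2 when a library was left out. In the pathway list, siBoth gave 3 instead of 6 with upper-quartile scaling, 10 with no filter, 10 with the replicate block, and 1 to 7 when a library was left out. In those settings, 6.5%, 4.87%, 11.7% and 3.62 to 6.8% of all genes were called. FDI-6 gave 11 to 18 instead of 19 when a library was left out, where 10.9 to 15.4% of all genes were called. It gave 15 when 10 counts were required in every library, which removes DLL1, NEURL1, NEURL3 and HEY2, where 13.8% of all genes were. With the replicate block, siFOXM1 gave 2 instead of 0, siFOXM1 against siMYBL2 15 instead of 9, and FDI-6 minus siFOXM1 19 instead of 10. Same-numbered FDI-6 libraries did not deviate together (mean correlation −0.085). There the block gave 16 list calls, where 13.2% of all genes were called. Over all genes, the block raised calls from 106 to 401 in siFOXM1, 1269 to 1991 in siMYBL2, 1019 to 1849 in siBoth and 27 to 271 between the siBoth and siMYBL2 effects, where DESeq2 gave 64; siBoth gave 1545 with no filter. When a library was left out, all-gene calls were 935 to 1456 in siMYBL2, 56 to 115 in siFOXM1, 587 to 1097 in siBoth, 1705 to 2406 with FDI-6 and 7 to 28 between the siBoth and siMYBL2 effects, lowest without siMYBL2 replicate 1, siFOXM1 replicate 1, siBoth replicate 2, control_FDI6 replicate 1 and siControl replicate 1. Upper-quartile scaling turned the split of lower and higher genes from 576 and 443 to 417 and 610 in siBoth and from 879 and 1219 to 1045 and 1035 with FDI-6. The causes of these changes were not tested. Low counts limit DLL1, HEY1, NEURL1 and NEURL3.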
